A study of Mus musculus with 48 samples.

Results

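Genes of liver glucose production and amino acid breakdown were followed in mouse liver, 9 in all: Pck1, G6pc, Fbp1, Pcx, Slc37a4, Sds, Tat, Got1 and Ppargc1a. They were taken by symbol from the deposited count table, which held 22354 genes, and all 9 were found and passed the filter on low counts. The mice with the knockout genotype (KO) carried floxed Bmal1 alleles (fx/fx) together with aP2-Cre, a transgene whose promoter is used to drive Cre in adipocytes, and the wild-type group (WT) consisted of their littermate controls, whose alleles the labels do not list further. Both groups were C57BL/6, are described as 4 to 6 months old, had free access to food, and were kept in constant darkness for 36 h before liver was collected in darkness at 0, 4, 8, 12, 16 and 20 h. There were 23 KO and 25 WT libraries, 1 mouse each, with 4 per genotype and time except at 16 h, where the labels give 3 KO and 5 WT and the design text gives 4 of each.

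Liver makes glucose between meals from lactate, glycerol and amino acids. Pyruvate carboxylase (Pcx) and phosphoenolpyruvate carboxykinase (Pck1) lift pyruvate past the irreversible last step of glycolysis, fructose bisphosphatase (Fbp1) removes a phosphate from fructose bisphosphate, and glucose-6-phosphatase (G6pc) frees glucose from its phosphate after the transporter encoded by Slc37a4 has carried glucose-6-phosphate into the endoplasmic reticulum. Serine dehydratase (Sds), tyrosine aminotransferase (Tat) and cytosolic aspartate aminotransferase (Got1) turn amino acids into the carbon skeletons that feed this route. Glucagon, acting through cyclic AMP, and glucocorticoids raise the transcription of several of these genes and insulin lowers it, and Ppargc1a encodes a coactivator induced by fasting.

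Library totals without albumin lay between 12841969 and 13009797 counts. Hepatocyte genes were abundant in every library, with transthyretin (Ttr) at 2886 CPM or more. The tissue label is liver, while the cell type label says adipocyte: of 10 adipocyte markers, Lep, Retn and Plin1 had at most 2 counts in any library, Adipoq at most 12 and Cfd at most 22, while the other 5 had counts in every library, with 140 to 3450 for Plin4, 723 to 38963 for Car3, 17 to 1008 for Cidec, 57 to 470.0 for Lpl and 46 to 196 for Fabp4. The design text calls the mice male, but each library held between 3029 and 13969 counts of Xist, the RNA of the inactive female X, and the Y-linked Kdm5d, Uty and Eif2s3y summed to 1 count each. Arntl, the symbol of Bmal1, had 21 to 493 counts (median 162) in KO livers and 10 to 537 counts (median 211) in WT livers. The genotypes were fully apart at 4 h and at 16 h, in opposite directions. At 4 h KO was lower (74 to 162 counts, against 166 to 447 in WT). At 16 h KO was higher (259 to 415 counts, against 172 to 254 in WT). Liver RNA does not check a deletion driven by an adipocyte promoter. Unusual RNA was found in 3 libraries: KO_0h replicate 2 had pancreatic enzyme genes (summed marker level 330.4 CPM), KO_16h replicate 2 is described with the results, and WT_0h replicate 3 had adrenal genes (134 CPM). KO_16h replicate 2 had pancreas and adrenal sums of only 8.70 and 1.83 CPM, and its high levels include some of the 9 genes. Saa1 ranged from 212 to 111674 counts. WT_0h replicate 3 had the highest Saa1 (8796 CPM) and the highest macrophage marker sum (1232 CPM, against a WT median of 282 CPM). The 3 libraries of high Saa1 left out in an alternative were WT_0h replicate 3, KO_4h replicate 2 and KO_20h replicate 1.

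Across the 6 times, 1 of the 9 genes passed the test of KO against WT: Sds was lower in KO livers. Changes were negative for 7 of the 9, with a median of −0.28 on the log2 scale, against a median of −0.0047 over all 13646 genes tested. Of all genes, 1.40% passed this test, 0.777% as lower in KO, and 51.1% had a negative change. Many of the 9 varied together between mice of the same group (median r of 0.49 over 36 pairs), so their signs are not 9 separate results. Without adjustment, p was under 0.05 for 4 of the 9 (Sds, Pck1, Tat and Slc37a4, all lower in KO) and for 17.1% of all genes. Values are CPM scaled with TMM factors, log2 changes are KO minus WT averaged over the 6 times with their standard errors (SE), and adjusted p-values are Benjamini-Hochberg values over all genes from edgeR's quasi-likelihood test with a threshold of 0.05. Since the tissue was sequenced in bulk, fewer cells that express a gene and less RNA per cell cannot be told apart.

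Sds (ENSMUSG00000029597, mm9 chr5:120926540-120933941) encodes the enzyme that deaminates serine to pyruvate. It ranged from 53.7 to 477 CPM (median 127) over the 23 KO livers and from 108 to 506 CPM (median 236) over the 25 WT livers, and 21 of the 23 KO livers lay below the WT median while 1 of the 25 WT livers lay below the KO median. At 8 h, Sds had 154, 86.9, 91.1 and 74.9 CPM in KO livers, against 177, 157, 207 and 166 CPM in WT livers. At 12 h it had 192, 148, 84.9 and 187 CPM in KO livers, against 231, 236, 257 and 506 CPM in WT livers. At both of these times every KO liver was below every WT liver, which held for 0.791% of all genes at 8 h and 1.90% at 12 h, and at the other 4 times the genotypes overlapped. The KO mean was lower at all 6 times, a pattern shared by 4.87% of all genes. Averaged over the times, Sds was at 157 CPM in KO livers and 265 CPM in WT livers, a log2 change of −0.80 ± 0.19 (edgeR adjusted p = 0.0238). It passed under all 57 alternatives tried, with changes between −1.01 and −0.72 and edgeR or DESeq2 adjusted p up to 0.0470, close to the threshold. Of the 57, 48 left out 1 library each and so share most of the data. No single time passed on its own; the 0 h difference was −1.21 ± 0.48 (edgeR adjusted p = 0.674).

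**Figure D1:**
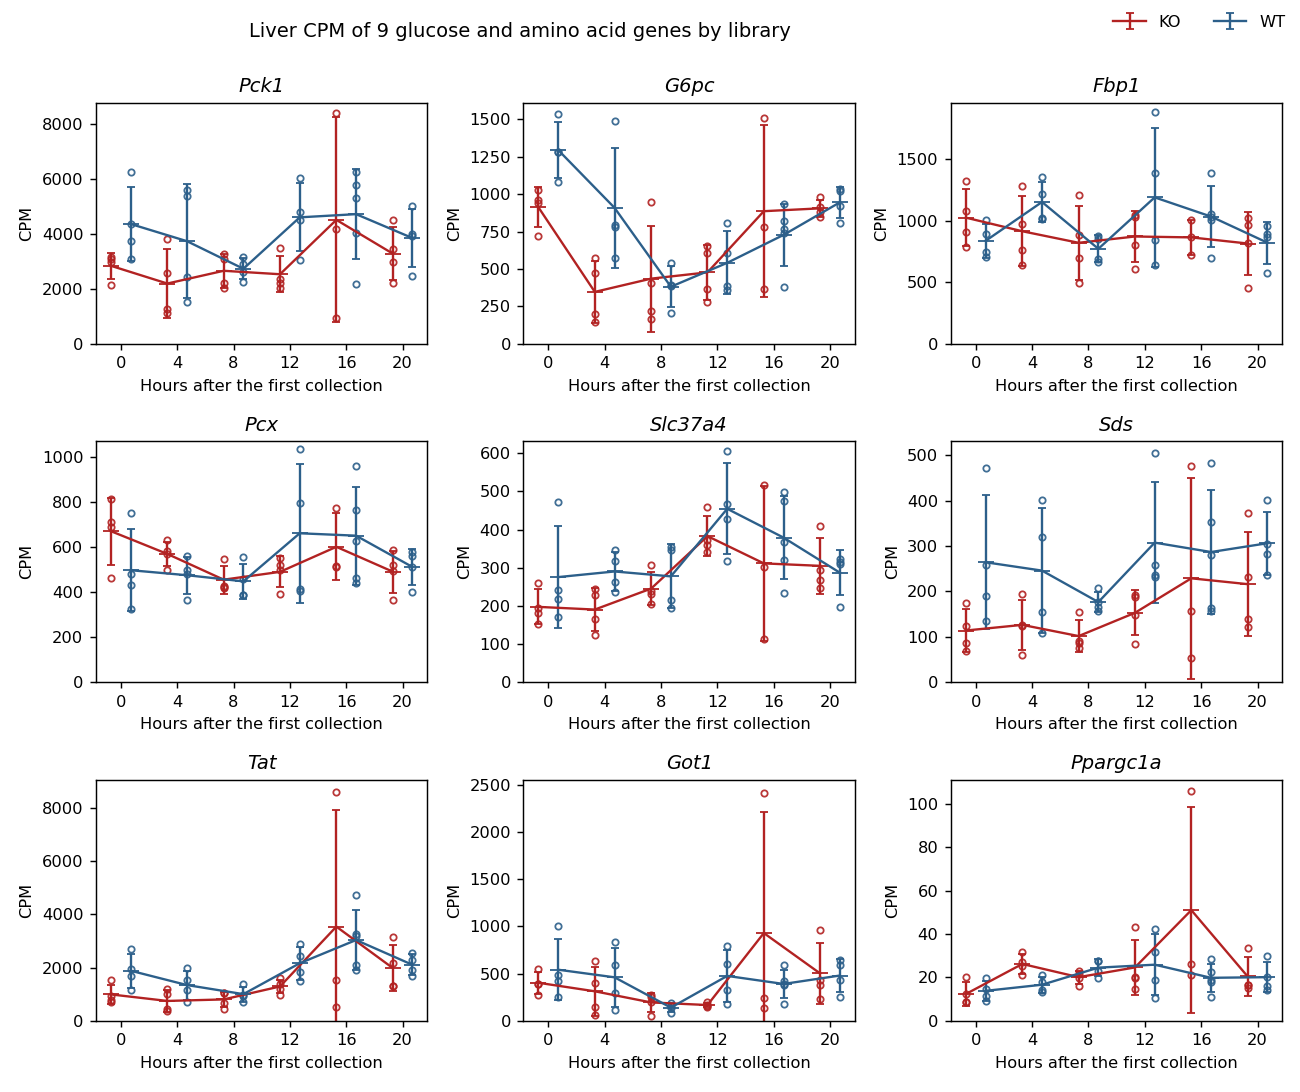
CPM of the 9 genes in each library (open circles) against the collection time in hours, with KO (red) drawn to the left of WT (blue) at each time. Horizontal ticks joined by lines are group means and bars are SD (n = 4, but 3 KO and 5 WT at 16 h; bars that reach below 0 are clipped at the axis). The Sds panel shows the KO mean below the WT mean at every time, and single KO points at 16 h stand far above the rest for Pck1, Tat, Got1 and Ppargc1a.

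Sds lies among the genes that hepatocytes near the portal vein express most. The summed level of 12 periportal marker genes ranged from 7551 to 23359 CPM (median 10366) in KO livers and from 9216 to 19763 CPM (median 11885) in WT livers. None of the 12 was called by edgeR, beside 1.40% of all genes. Unadjusted p was under 0.05 for 4, all lower in KO, beside 17.1% of all genes. DESeq2 called 1 (Hal), and 356 genes over the whole table. Changes were negative for 10 of the 12, beside 51.1% of all genes, with a median of −0.17 on the log2 scale. Of 12 pericentral markers 1 passed as higher in KO, Cyp2c37, and the median change was 0.12. Unadjusted p was under 0.05 for 2, both higher in KO. DESeq2 called Cyp2c37 and Lect2 (0.47 ± 0.13, edgeR adjusted p = 0.0669). The part of these markers in the Sds result was not tested.

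Tat (ENSMUSG00000001670, mm9 chr8:112514337-112523703) starts the breakdown of tyrosine and is a classical glucocorticoid target of liver. It ranged from 351 to 8588 CPM (median 1062) in KO livers and from 708 to 4740 CPM (median 1896) in WT livers. Of the 23 KO livers 20 were below the WT median, and the KO mean was lower at 5 of the 6 times. At 16 h Tat had 1536, 8588 and 502 CPM in KO livers, against 3262, 3180, 2112, 4740 and 1896 CPM in WT livers, so 2 KO livers lay below all WT livers and 1 lay above all of them. The change over the times, −0.45 ± 0.19, did not pass (edgeR adjusted p = 0.231). Without KO_16h replicate 2, the 8588 CPM library, it was −0.75 ± 0.16 and passed (edgeR adjusted p = 0.00652), in a fit in which 2.61% of all genes passed. Without all 3 libraries of unusual content it was −0.82 (edgeR adjusted p = 0.00321), with 2.19% of all genes passing. Both fits leave out the KO library with the highest Tat, which lowers the KO mean in any case. They are therefore no separate test of Tat. Without KO_16h replicate 3, the 502 CPM library, it was −0.36 ± 0.17 and did not pass (edgeR adjusted p = 0.391).

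Got1 (ENSMUSG00000025190, mm9 chr19:43574242-43599095) moves amino groups between aspartate and glutamate, and of the 9 genes it varied most between mice of 1 group: the highest library of a group was a median of 4.83 times the lowest in KO and 3.62 times in WT. It ranged from 48.7 to 2414 CPM (median 257) in KO livers and from 78.9 to 1006 CPM (median 392) in WT livers. The change over the times was −0.12 ± 0.26 (edgeR adjusted p = 0.83), and −0.51 ± 0.24 without KO_16h replicate 2 (adjusted p = 0.206). Without KO_16h replicate 3 it was −0.029 ± 0.25 (edgeR adjusted p = 0.976). At 12 h Got1 was at 167 ± 19.7 CPM in KO livers and 476 ± 276 CPM in WT livers (SD, n = 4 each), and the difference of −1.51 ± 0.66 did not pass (edgeR adjusted p = 0.908).

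Among the genes of glucose output, Pck1 (ENSMUSG00000027513, mm9 chr2:172978549-172984774) makes phosphoenolpyruvate from oxaloacetate. Its promoter is shown because Pck1 is a textbook target of cyclic AMP signalling, with those of G6pc and Ppargc1a for comparison. The sequences are the RefSeq promoters of build GRCm38.p6, from 250 bases before to 50 after the gene start, and capitals mark the motif found in each: TTACGTCA in Pck1 (chr2:173152823-173153122, plus strand), AGGTCA, a nuclear receptor half-site, read on the opposite strand in G6pc (chr11:101367466-101367765, plus strand), and TGACG, a cyclic AMP element half-site, read on the opposite strand in Ppargc1a (chr5:51567676-51567975, minus strand).
Pck1: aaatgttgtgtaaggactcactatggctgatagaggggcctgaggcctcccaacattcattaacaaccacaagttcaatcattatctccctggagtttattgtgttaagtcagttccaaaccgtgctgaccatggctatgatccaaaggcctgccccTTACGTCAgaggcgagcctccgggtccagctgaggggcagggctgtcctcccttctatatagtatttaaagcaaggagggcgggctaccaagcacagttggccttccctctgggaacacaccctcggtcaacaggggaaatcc
G6pc: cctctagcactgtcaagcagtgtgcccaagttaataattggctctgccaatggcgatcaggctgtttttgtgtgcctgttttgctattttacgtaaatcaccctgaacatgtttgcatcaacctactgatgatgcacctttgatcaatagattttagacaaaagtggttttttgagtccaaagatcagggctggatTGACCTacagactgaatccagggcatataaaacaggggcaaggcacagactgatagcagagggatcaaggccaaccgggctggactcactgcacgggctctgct
Ppargc1a: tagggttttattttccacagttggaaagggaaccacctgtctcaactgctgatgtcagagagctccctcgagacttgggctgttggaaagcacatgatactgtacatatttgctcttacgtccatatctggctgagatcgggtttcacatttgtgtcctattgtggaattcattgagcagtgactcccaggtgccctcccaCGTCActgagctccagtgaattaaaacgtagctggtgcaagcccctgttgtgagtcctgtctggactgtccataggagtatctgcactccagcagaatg
In Pck1 the 8 bases lie at −93 to −86 from the start and overlap a TGACG match on the opposite strand at −90 to −86. Searched on both strands, TTACGTCA was found in 0.499% of all 32851 promoters, TGACG in 20.8%, AGGTCA in 16.3%, the full element TGACGTCA in 1.79% and the E-box CACGTG in 7.15%. Of the 9 genes 8 had a promoter in the RefSeq table, some with more than 1 start: 1 gene held TTACGTCA, 3 held TGACG, 4 held AGGTCA, 1 held CACGTG (Pcx) and 0 held TGACGTCA. A gene was counted if any of its starts matched (11 promoters for the 8 genes). The shares above are per promoter, so the 2 cannot be compared directly. The matches describe the letters of these windows and no binding was measured.

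Pck1 ranged from 951 to 8402 CPM (median 2968) in KO livers and from 1515 to 6278 CPM (median 3990) in WT livers. Of the 23 KO livers 20 were below the WT median, and the KO mean was lower at all 6 times, although the genotypes overlapped at each. Its means were 2195 ± 1259 CPM in KO livers and 3739 ± 2074 CPM in WT livers at 4 h, and 2535 ± 654 CPM in KO livers and 4609 ± 1237 CPM in WT livers at 12 h (SD, n = 4 each). The change over the times was −0.43 ± 0.17 and did not pass (unadjusted p = 0.0149, edgeR adjusted p = 0.191). Without KO_16h replicate 2, which held the highest value, it was −0.57 ± 0.16 (edgeR adjusted p = 0.0486), in a fit in which 2.61% of all genes passed. Leaving out the highest KO library lowers the KO mean in any case, so that fit is no separate test of Pck1. Without KO_16h replicate 3, which held the lowest value, it was −0.35 ± 0.15 (edgeR adjusted p = 0.334).

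G6pc (ENSMUSG00000078650, mm9 chr11:101228875-101239217) did not pass the test of KO against WT at any time. At 0 h it had 943, 1028, 718 and 958 CPM in KO livers, against 1280, 1284, 1079 and 1537 CPM in WT livers, and no KO liver reached the lowest WT liver, a separation seen in 1.77% of all genes at that time. The 0 h difference was −0.51 ± 0.42 (unadjusted p = 0.233, edgeR adjusted p = 0.9999). At 4 h it had 473, 574, 196 and 143 CPM in KO livers, against 781, 1491, 573 and 790.5 CPM in WT livers. The 4 h groups touched only where the highest KO liver and the lowest WT liver met. The 4 h difference was −1.39 ± 0.43 on the log2 scale (unadjusted p = 0.00219, edgeR adjusted p = 0.118), at a time when 9.77% of all genes were lower in KO by the unadjusted test and 0.0366% passed. It passed without KO_4h replicate 1 (−1.57 ± 0.48, edgeR adjusted p = 0.0216), a fit in which 24.6% of all genes passed, and without both 16 h groups (adjusted p = 0.0484), in which 4.07% passed. Over the times the change was −0.28 ± 0.17 (edgeR adjusted p = 0.401).

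Slc37a4 (ENSMUSG00000032114, mm9 chr9:44205182-44211046) was at 272 CPM in KO livers and 327 CPM in WT livers averaged over the times, and the change of −0.28 ± 0.13 did not pass (edgeR adjusted p = 0.247). Its KO mean was lower at 5 of the 6 times. Fbp1 (ENSMUSG00000069805, mm9 chr13:62966113-62989642) changed by −0.11 ± 0.11 (edgeR adjusted p = 0.601), at 886 CPM in KO livers and 969 CPM in WT livers. Pcx (ENSMUSG00000024892, mm9 chr19:4510472-4621752) was at 546 CPM in KO livers and 541 CPM in WT livers, a change of 0.018 ± 0.10 (edgeR adjusted p = 0.940) whose sign turned under 8 of 57 alternatives. A missed threshold does not show equal levels.

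Ppargc1a (ENSMUSG00000029167, mm9 chr5:51845488-51958964), the coactivator, had a positive change of 0.25 ± 0.16 that did not pass (edgeR adjusted p = 0.412) and was 0.067 ± 0.14 without KO_16h replicate 2. It ranged from 8.47 to 106 CPM (median 20.3) in KO livers and from 9.29 to 42.6 CPM (median 19.0) in WT livers. At 16 h it had 21.0, 106 and 26.2 CPM in KO livers, against 19.0, 28.7, 18.1, 22.3 and 11.1 CPM in WT livers. The 16 h difference of 1.36 ± 0.40 (unadjusted p = 0.00138, edgeR adjusted p = 0.316) was 0.25 without KO_16h replicate 2. At 4 h its mean was 26.2 ± 4.47 CPM in KO livers and 16.6 ± 3.71 CPM in WT livers (SD, n = 4 each), a difference of 0.66 ± 0.40 (edgeR adjusted p = 0.297).

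**Figure D2:**
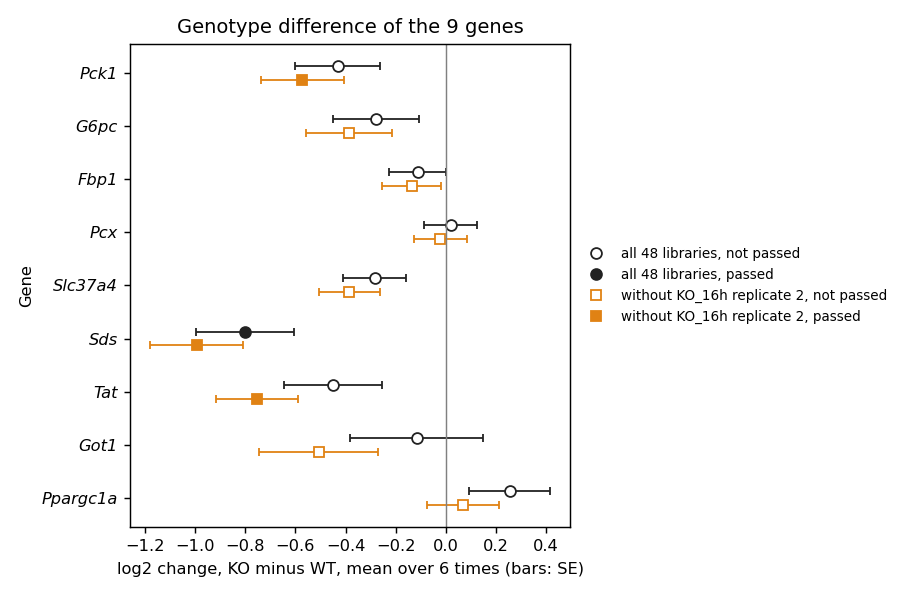
Log2 change, KO minus WT, averaged over the 6 times, for each gene, with SE bars, from the fit to all 48 libraries (black circles) and from the fit without KO_16h replicate 2 (orange squares); filled symbols passed at an adjusted p under 0.05. With all libraries Sds alone passed (−0.80), beside 1.40% of all genes. Without that library Pck1 (−0.57), Sds (−0.99) and Tat (−0.75) passed, beside 2.61% of all genes. That library held the highest Pck1 and Tat, so leaving it out lowers their KO means in any case.

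KO_16h replicate 2 had the highest level of all 48 libraries for Pck1 (8402 CPM), Tat (8588 CPM), Got1 (2414 CPM) and Ppargc1a (106 CPM), the second highest for G6pc (1508 CPM) and Slc37a4 (518 CPM), and ranked 3 for Sds (477 CPM). Its Pcx (773 CPM, rank 5) and Fbp1 (1008 CPM, rank 18) lay further inside the range of the other libraries. Igfbp1, Lepr and Fgf21 were named after their values were seen. Igfbp1, a hepatic gene induced by fasting and repressed by insulin, was 3766 CPM in that library, against at most 454 CPM in any other. Lepr, the leptin receptor, was 516 CPM, against at most 60.8 CPM in any other. Fgf21, a hepatic hormone that is also induced by fasting, was 2.78 CPM and ranked 42 of 48, against up to 44.4 CPM in the other libraries. Its periportal marker sum of 23359 CPM was also the highest.

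Whether the genotype effect differed between times was asked by the interaction test, which none of the 9 genes passed in edgeR or DESeq2. One of the 9 had an unadjusted p under 0.05 (Ppargc1a, 0.0424), and 0.00733% of all genes passed. None of the 9 passed at any single time in either tool, while at 0, 4, 8, 12, 16 and 20 h 0.0147%, 0.0366%, 0.00%, 0.00%, 0.0220% and 0.00% of all genes passed in edgeR. An unadjusted p under 0.05 was reached by 1, 2, 0, 3, 1 and 0 of the 9 at these times, beside 5.53%, 23.3%, 1.82%, 4.40%, 6.65% and 1.84% of all genes. At 4 h, where replicate numbers were taken to pair the mice, the fit with the replicate as a block called 2 genes in place of 5, and again none of the 9. Within these 4 pairs the KO liver was the lower one every time for 5 of the 9 genes (Pck1, G6pc, Slc37a4, Sds and Tat), beside 18.4% of all genes, and the higher one every time for Pcx and Ppargc1a, beside 16.9%. The pairs were inferred from correlations in these same libraries. Several of the 5 genes varied together between mice (r = 0.78 for Pck1 and Sds), so the 5 are not separate results. Pck1 had 3809, 2577, 1119 and 1277 CPM in the KO livers of the pairs, against 5608, 5400, 1515 and 2432 CPM in their WT partners. With the block the 4 h difference was −1.53 for G6pc (unadjusted p = 0.00099, edgeR adjusted p = 0.132), −0.93 for Tat (adjusted p = 0.151) and −0.75 for Pck1 (adjusted p = 0.203).

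The 6 times run from 0 to 20 h, less than 1 cycle, so a rhythm here means a passed harmonic of 24 h, not repetition. By this test G6pc, Slc37a4 and Tat had a rhythm in KO livers and G6pc and Tat had one in WT livers. Thus 3 of 9 genes passed in KO and 2 of 9 in WT, beside 17.0% of all genes in KO and 16.3% in WT, and 2 of 9 passed in both genotypes, beside 9.59%. Least-squares fits to log2 CPM placed the G6pc peak at 19.5 ± 1.0 h in KO livers and 22.4 ± 0.66 h in WT livers, with amplitudes from mean to peak of 0.87 ± 0.22 in KO livers and 0.79 ± 0.14 in WT livers (SE; edgeR adjusted p = 0.00981 in KO and 0.00783 in WT). The lowest G6pc mean was 347 ± 210 CPM at 4 h in KO livers and 381 ± 137 CPM at 8 h in WT livers (SD, n = 4 each). Tat peaked at 17.2 ± 1.1 h in KO livers and 17.5 ± 0.80 h in WT livers, with amplitudes of 0.83 ± 0.25 in KO livers and 0.68 ± 0.14 in WT livers (edgeR adjusted p = 5.0e-04 in KO and 0.0327 in WT). The edgeR amplitude of Tat in KO was 1.05, and 0.64 without KO_16h replicate 2, where it still passed. The WT rhythm of Tat lost its call under 9 of 57 alternatives. They left out WT_4h replicate 3 or 4, WT_8h replicate 1, 2 or 4, WT_16h replicate 1 or 4 or both 16 h groups, or treated time as 6 levels, with adjusted p between 0.0518 and 0.137.

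Slc37a4 peaked at 14.3 ± 1.2 h in KO livers and 13.4 ± 1.4 h in WT livers, and its rhythm passed in KO (edgeR adjusted p = 0.0155) but not in WT (0.114). The KO call was lost without KO_16h replicate 2 (adjusted p = 0.0572, with 14.4% of all genes passing) and with time as 6 levels (0.0920), and WT passed without WT_0h replicate 2 (0.0295). In neither tool did any of the 9 genes pass the test of a rhythm difference between genotypes, which 0.00733% of all genes passed in edgeR; Pcx alone had an unadjusted p under 0.05 (0.0411). The other 6 genes, Pck1 among them, did not pass a rhythm test in either genotype. Got1 in KO passed with DESeq2 (adjusted p = 0.0440) and in edgeR without KO_4h replicate 1, KO_16h replicate 3 or KO_20h replicate 3. Sds in KO passed without KO_4h replicate 1 or KO_16h replicate 3. Time as 6 levels asks for any difference between times, not for a 24 h harmonic, and there Ppargc1a in KO passed (edgeR adjusted p = 0.0177). The edgeR harmonic amplitude of Ppargc1a in KO was 0.51, and 0.27 without KO_16h replicate 2, its highest library.

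Many pairs of the 9 genes varied together between mice of the same group. For each gene the deviation of each library from its genotype and time mean was taken on the log2 CPM scale, and the 36 pairs of genes were compared over 48 libraries by a two-sided permutation test within groups with 100000 resamples and Benjamini-Hochberg adjustment over the 36 pairs. By Pearson's r 24 pairs passed, 22 of them positive, and by Spearman's rho 20 passed. All 24 kept their sign within KO, within WT, without the 2 libraries farthest from the median of the first gene and without the 3 libraries of unusual content, but 7, 8, 2 and 4 of them no longer passed in these settings. In the same order, 1, 0, 1 and 1 pairs outside the 24 passed there. Correlated deviations were common in the whole table. An absolute r of at least 0.31, that of the weakest pair that passed, was reached by 25 of the 36 pairs (69.4%) and by 45.2% of all 93099835 pairs of the 13646 genes, and one of at least 0.5 by 18 pairs (50.0%) and by 21.9% of all pairs. The median r was 0.49 over the 36 pairs and −0.0025 over all pairs, of which 49.8% were positive. These cuts were chosen after the values were seen, and the shares carry no test.

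The 3 amino acid enzymes varied together. Tat and Got1 had r = 0.82 and rho = 0.77 (permutation adjusted p = 6.0e-05 for r and 9.0e-05 for rho), with r = 0.76 without the 2 farthest libraries, 0.88 within KO and 0.69 within WT. Sds and Got1 had r = 0.81 and rho = 0.78 (the same permutation adjusted p-values), with 0.75 without the 2 farthest libraries, 0.81 within KO and 0.81 within WT. Sds and Tat had r = 0.76 and rho = 0.67 (permutation adjusted p = 9.0e-05 and 1.6e-04), with 0.65 without the 2 farthest libraries, 0.83 within KO and 0.67 within WT. The unadjusted p behind 6.0e-05 was 1e-05, the smallest that these permutations can give.

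Pck1 followed them. With Sds it had r = 0.78 and rho = 0.72 (permutation adjusted p = 6.0e-05 and 1.4e-04), with 0.69 without the 2 farthest libraries, 0.81 within KO and 0.74 within WT. With G6pc it had r = 0.54 and rho = 0.42 (permutation adjusted p = 0.00896 and 0.0303), with 0.42 without the 2 farthest libraries, 0.68 within KO (passed) and 0.28 within WT (permutation adjusted p = 0.429). G6pc had a smaller r with Sds (0.28, permutation adjusted p = 0.198) and with Slc37a4 (0.31, permutation adjusted p = 0.141), its partner in glucose release, and neither pair passed.

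Ppargc1a was the exception in sign. It had r = −0.45 and rho = −0.44 with Fbp1 (permutation adjusted p = 0.0123 and 0.0142), with −0.38 without the 2 farthest libraries, −0.41 within KO (permutation adjusted p = 0.0547) and −0.49 within WT (0.218). With Pcx it had r = −0.52 and rho = −0.50 (permutation adjusted p = 0.00896 and 0.00854), with −0.43 without the 2 farthest libraries, −0.25 within KO (permutation adjusted p = 0.481) and −0.75 within WT (0.00931). Without KO_16h replicate 2 its r was −0.60 with Fbp1 and −0.76 with Pcx. Its r with Pck1 was −0.05 (permutation adjusted p = 0.883). That pair passed without the 2 farthest libraries (−0.39, permutation adjusted p = 0.0131) and without the 3 libraries of unusual content (−0.41, 0.00576). It did not pass within KO (0.16, 0.795) or within WT (−0.35, 0.176). Its r with Tat was 0.48, and 0.23 without KO_16h replicate 2. That pair did not pass without the 2 farthest libraries (0.29, permutation adjusted p = 0.0706), without the 3 libraries of unusual content (0.16, 0.352), within KO (0.53, 0.237) or within WT (0.40, 0.126). G6pc and Fbp1 (0.38) also lost their call without the 2 farthest libraries (0.31, permutation adjusted p = 0.0832).

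**Figure D3:**
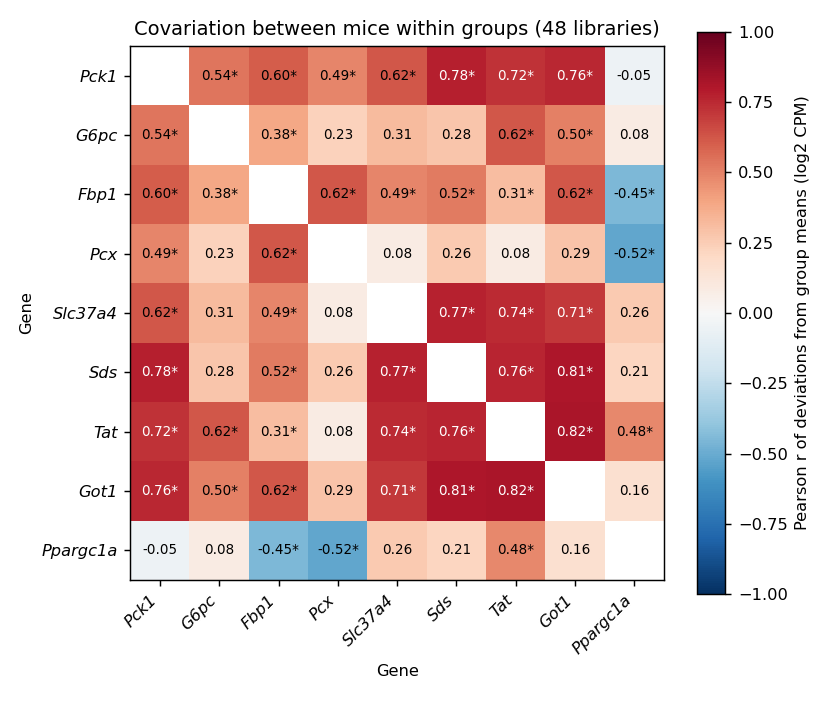
Pearson r between the log2 CPM deviations of each pair of genes from their genotype and time means, over 48 libraries, on a scale from −1 (blue) to 1 (red); an asterisk marks a permutation adjusted p under 0.05 over the 36 pairs. The block of Slc37a4, Sds, Tat and Got1 lies between 0.71 and 0.82, and the negative values sit in the Ppargc1a row.

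Over all 48 libraries, genotype and time differences included, the genes of the table whose log2 CPM was most like each of the 9 were looked up. Genes that averaged under 1 CPM were left out, and so were genes with provisional names, such as those ending in Rik. These correlations across libraries share the same mice and groups and carry no test. Sds was closest to Sdsl (r = 0.87), a serine dehydratase-like gene, and to Ass1 (0.86), an enzyme of the urea cycle, then to Nrbp2 (0.85). Got1 was closest to Asl (0.86), the next enzyme of that cycle, then to Fam53b (0.84) and Sorbs3 (0.82). Pcx was closest to Got2 (0.87), the mitochondrial aspartate aminotransferase, then Slc38a10 (0.87) and Mst1 (0.85), and Slc37a4 to Prodh (0.81), which starts proline breakdown, then Stard5 (0.81) and Lpin1 (0.77). G6pc was closest to Igfbp1 (0.85), Slc25a25 (0.84) and Zfp295 (0.81). The nearest genes were Srsf4, Pnpla2 and Slc24a6 for Pck1 (0.86 to 0.88), Rbck1, Txn2 and Acsf3 for Fbp1 (all 0.87), Mcart1, Mfsd2a and Map3k6 for Tat (0.81 to 0.89), and Zfp281, Fam134b and Megf9 for Ppargc1a (0.83 to 0.86). Without KO_16h replicate 2 the r of these 27 genes lay between 0.76 and 0.89. None of the 27 was one of the 9 genes.

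Few genes of the wider pathway passed the test. Of all genes, 1.40% passed it in edgeR and 17.1% had an unadjusted p under 0.05. Of 20 other genes of gluconeogenesis and glucose output none passed over the times in edgeR or DESeq2, 2 had an unadjusted p under 0.05, and the median change was −0.10. The lowest p-values belonged to the glycerol-3-phosphate dehydrogenase Gpd1 (−0.27 ± 0.12, edgeR adjusted p = 0.249), the glucose-6-phosphate isomerase Gpi1 (−0.29 ± 0.14, 0.280) and the malate dehydrogenase Mdh1 (0.17 ± 0.10, 0.397). Of 47 other amino acid breakdown genes none passed in edgeR, 13 had an unadjusted p under 0.05 (6 lower and 7 higher in KO), DESeq2 called 2 (Hal and Sdsl), and the median was 0.02. Hal, which deaminates histidine, was at 424 CPM in KO livers and 615 CPM in WT livers (−0.44 ± 0.13, edgeR adjusted p = 0.0779). Sdsl was at 11.1 CPM in KO livers and 17.3 CPM in WT livers (−0.67 ± 0.21, 0.0897), and Mccc2, of leucine breakdown, changed by 0.21 ± 0.07 (0.117). Of 8 glycolytic genes that oppose gluconeogenesis none passed in edgeR or DESeq2, 2 had an unadjusted p under 0.05 and the median was −0.15; the lowest p-values were those of Pfkfb3 (−0.33 ± 0.14, edgeR adjusted p = 0.234), Pdha1 (0.17 ± 0.08, 0.269) and Pfkl (−0.17 ± 0.14, 0.4996).

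Among 28 regulators of these genes 1 passed: Irs1, which relays the insulin receptor's signal, rose to 48.2 CPM in KO livers, against 37.1 CPM in WT livers (0.38 ± 0.08, edgeR adjusted p = 0.0103), and it passed under all 57 alternatives. Unadjusted p was under 0.05 for 8 of the 28 (5 lower and 3 higher in KO), beside 17.1% of all genes. DESeq2 called Irs1 and Trib1 (−0.43 ± 0.13, edgeR adjusted p = 0.0842). The median of the 28 was −0.08. Of 12 glucocorticoid response genes 2 passed, both lower in KO, beside 1.40% of all genes. Unadjusted p was under 0.05 for 4, all lower in KO. DESeq2 called these 2 and Sgk1 (−0.44 ± 0.12, edgeR adjusted p = 0.0528). Of the 12 changes 11 were negative, beside 51.1% of all genes, with a median of −0.28. This list and the other wider lists were chosen with earlier results of these data known. Their counts beside the shares of all genes are therefore no test of a list. Dusp1, a phosphatase of MAP kinases, was at 26.7 CPM in KO livers and 77.9 CPM in WT livers (−1.64 ± 0.18, edgeR adjusted p = 1.7e-07) and passed under all 57 alternatives. Fkbp5, which encodes a cochaperone of the glucocorticoid receptor, was at 92.0 CPM in KO livers and 148 CPM in WT livers (−0.65 ± 0.18, edgeR adjusted p = 0.0488), and lost its call under 35 of the 57 alternatives. Cyp2c37, the pericentral gene named above, was at 2147 CPM in KO livers and 1483 CPM in WT livers (0.50 ± 0.12, edgeR adjusted p = 0.0228) and lost its call without KO_16h replicate 3, without both 16 h groups and with the replicate block.

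**Figure D4:**
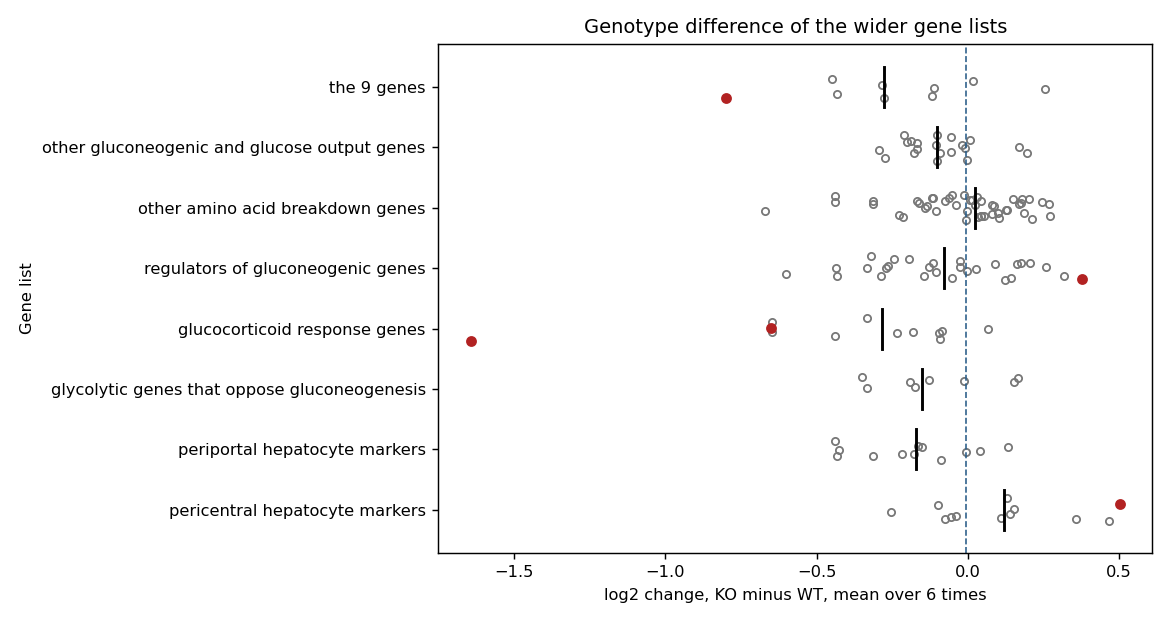
Log2 change, KO minus WT, averaged over the 6 times, of each tested gene (circles) in the 9 genes and 7 wider lists; filled red circles passed at an adjusted p under 0.05, black bars are list medians and the dashed line is the median of all 13646 genes (−0.0047). The filled points are Sds at −0.80, Irs1 at 0.38, Dusp1 at −1.64, Fkbp5 at −0.65 and Cyp2c37 at 0.50.

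Markers of other cells were counted the same way, beside the same shares of all genes (1.40% passed, 17.1% with an unadjusted p under 0.05). No tested marker passed in edgeR for adipocytes (5 of 10 tested), Kupffer cells and other macrophages (9), bile duct (5), endothelial cells (8), fibroblasts with stellate cells (8), pancreas (2), adrenal (2) or kidney (1), and 3, 0, 2, 1, 2, 2, 1 and 0 of them had an unadjusted p under 0.05. DESeq2 called Des and Hand2 of the stellate cell list, Krt7 of the bile duct list and Star of the adrenal list. Kidney, the other organ that makes glucose, had a summed marker level of at most 0.966 CPM in KO livers and 1.20 CPM in WT livers. The adipocyte sum ranged from 195 to 3346 CPM (median 1025) in KO livers and from 198 to 1684 CPM (median 693) in WT livers, and most of it was Car3, which liver also expresses.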

How the data were processed

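Poly-A RNA of whole liver was sequenced, with random hexamer priming and 13 PCR cycles in a TruSeq protocol, per the labels' protocols. The authors deposited whole-number read counts per gene; CASAVA, STAR 2.4.1d and build mm9 are named in the submitters' processing notes, while counting rule, strand use and annotation are not stated there, so overlapping and antisense genes are uncertain. Library totals were nearly equal, and how is not stated. Albumin, the 1 gene the table marks as high, was left out of totals and tests. The table held 0 columns of other samples. No pair of libraries in a group agreed within sampling noise (lowest chi-square per degree of freedom 20.7).

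In R 4.3.3, edgeR 4.0.16 was run on the counts: filterByExpr (count at least 10, total at least 15; 13646 genes kept, 8707 removed), TMM scaling and a quasi-likelihood fit of 12 group means to all 48 libraries, and, for rhythms, a harmonic of 24 h per genotype. The interaction test has 5 and the rhythm tests have 2 degrees of freedom. CPM are TMM-scaled, and log2 CPM use a prior count of 2. Peaks and amplitudes are least-squares estimates on log2 CPM. Covariation was tested by permutation within groups. The fits and the covariation test were checked on simulated data. DESeq2 1.42.0, other scalings and filters, a replicate block, and leaving out libraries were alternatives. Leaving out each library and KO_16h replicate 2 in the covariation, its background over all pairs of genes and the signs within the 4 h pairs were added after seeing the data.

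Deviations from group means, over 2000 genes, correlated above 0.1 in 13 of 23 pairs of KO and WT mice with the same replicate number in the labels (−0.361 to 0.542), and at 4 h in all 4 pairs (0.231 to 0.460). Pairing by number was therefore taken to hold at 4 h only. The replicate block, as an alternative, still joined equal numbers at every time. At 16 h those pairs correlated at −0.361 to −0.0415.

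The 9 genes and the lists were chosen with earlier results of these data known. The text names all 9 genes, the 3 genes most like each, and of each list every gene that passed or, in pathway lists, else the 3 with the lowest p. Igfbp1, Lepr and Fgf21 in KO_16h replicate 2 and the genes of the lists called by DESeq2 alone were named after their values were seen.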

Additional observations from a re-analysis of the deposited data

Results flagged for a closer look

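In 99 sets of 4 or 5 libraries (9 genes in 11 genotype and time groups), 4 held a library that stood apart from the rest of its group by Dixon's test; chance alone gives about 1 in 20. Pcx was 549 CPM in KO_8h replicate 2, while the other KO livers at 8 h lay between 420.1 and 428 CPM. Ppargc1a was 33.7 CPM in KO_20h replicate 3, against 14.9 to 16.6 CPM in the other KO livers at 20 h. Sds was 506 CPM in WT_12h replicate 4, against 231 to 257 CPM in the other WT livers at 12 h, so the Sds difference at 12 h was −1.01 with that library and −0.66 without it. Slc37a4 was 198 CPM in WT_20h replicate 2, below the other WT livers at 20 h, which lay between 311 and 323 CPM. The 16 h KO group has 3 libraries and was not tested in this way.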

How the results depend on the processing

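Sds passed over the times under all 57 alternatives, and none of the 9 genes passed the interaction or the rhythm difference under any. The number of the 9 that passed over the times (1) was 2 without the 3 libraries of unusual content and 1 to 3 when single libraries were left out; at 4 h (0) it was 1 without both 16 h groups and 0 to 1; for the KO rhythm (3) it was 2 to 5, and 5 without KO_4h replicate 1 or KO_16h replicate 3; for the WT rhythm (2) it was 1 without both 16 h groups, 1 with time as 6 levels, and 1 to 3. Pcx over the times was −0.018 without the 3 libraries of high Saa1 and −0.022 to 0.068 with single libraries left out, Got1 at 16 h was −1.04 without the 3 unusual libraries, −0.034 with the replicate block and −1.06 to 1.75 without single libraries, and Sds at 16 h was −1.46 to 0.13.

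Counts over all genes moved more. Over the times 191 genes passed, and 122 without the low-count filter, 303 without the 3 unusual libraries, 127 with the replicate block, 356 with DESeq2 and 99 to 484 without single libraries (KO_16h replicate 3 gave 99, KO_4h replicate 3 gave 125, KO_16h replicate 1 gave 328, KO_16h replicate 2 gave 363, WT_16h replicate 2 gave 381 and KO_4h replicate 1 gave 484, each when left out). For the interaction (1) the count was 0 without the unusual libraries, 0 with the block, 11 with DESeq2 and 0 to 3. At 0 h (2) it was 5 with RLE scaling, 10 without the filter, 5 with albumin, 8 without the unusual libraries, 0 without the high Saa1 libraries, 1 without the 16 h groups, 0 with the block, 0 with the groups of that time alone, 11 with DESeq2 and 0 to 9. At 4 h (5) it was 2 without the filter, 8 without the unusual libraries, 0 without the high Saa1 libraries, 543 without the 16 h groups, 2 with the block, 0 with that time alone, 192 with DESeq2 and 0 to 3354, the highest without KO_4h replicate 1. At 8 h (0) it was 2 with DESeq2 and 0 to 1. At 12 h (0) it was 1 without the filter, 1 without the 16 h groups, 3 with DESeq2 and 0 to 2. At 16 h (3) it was 0 without scaling, without the filter, with albumin, without the unusual libraries, with the block and with that time alone, 17 with DESeq2 and 0 to 25. The KO rhythm count (2322) was 1399 without the high Saa1 libraries, 1328 with time as 6 levels and 1628 to 3691, the highest without KO_16h replicate 3. The WT count (2228) was 1167 with time as 6 levels and 1876 to 2987. The rhythm difference (1) was 5 with DESeq2 and 1 to 2. The causes were not tested.

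Outside 4 h the replicate numbers did not meet the rule for pairs, although the block used them at every time. Results of the block other than those at 4 h therefore rest on pairs that were not established. The block changed no call of the 9 genes. Of the 24 pairs of genes that varied together, 7 did not pass within KO, 8 within WT, 2 without the 2 farthest libraries and 4 without the 3 unusual ones. With 3 to 5 mice in a group, the SE of a log2 difference at a single time lay between 0.25 and 0.66, which limits what could be detected there.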
